A study of Mus musculus with 31 samples.

Results

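Genes of respiratory chain complexes I to V were described across 31 BXD mouse strains. Members were the array's genes whose name began with Nduf, Uqcr or Atp5, or with Cox followed by a digit from 4 to 8, or was Sdha, Sdhb, Sdhc or Sdhd. The rule found 85 of the 15096 named genes, on 86 of the 23040 probes. There were 40 in complex I, 4 in complex II, 8 in complex III, 16 in complex IV and 17 in complex V, set by name prefix, so assembly factors named Ndufaf counted under complex I. Genes of the chain that lie on mitochondrial DNA were not among the named probes. By its name, Cyc1 of complex III also falls outside the rule.

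BXD strains are inbred lines bred from a cross of C57BL/6J with DBA/2J, and each carries a fixed mosaic of both parental genomes. For each strain (BXD/TyJ), RNA of 3 males aged 8 weeks was pooled, labelled with Alexa Fluor 647 and hybridised on 1 array against pooled RNA of C57BL/6J males of the same age, labelled with Alexa Fluor 555 together with spike-in transcripts. No treatment is named. Dyes were not exchanged on any array, so a mean that differs from 0 over the panel can be an effect of strain, of the reference RNA or of dye, which cannot be told apart here. Titles of the samples name kidney, while their source and tissue fields name whole brain for strain and reference alike. A ratio holds no level, so the tissue could not be checked through the level of its defining genes.

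The respiratory chain sits in the inner mitochondrial membrane. Complex I oxidises NADH and complex II oxidises succinate. Both reduce ubiquinone, complex III hands the electrons to cytochrome c, and complex IV passes them to oxygen. Complexes I, III and IV pump protons, and complex V, the ATP synthase, makes ATP from the returning flow. Kidney tubules and brain are both known for a high demand for this ATP.

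Values are log2 ratios of strain over C57BL/6J. Neither the base nor the direction is stated in the sources used here, and this reading is the likely one, from the convention of the submitters' software. All 31 arrays held the same set of sorted values, with a median of 0.0127 and an SD of 0.602. The mean correlation of an array with the others was lowest for BXD38 (0.15) and BXD15 (0.191) and next lowest for BXD9 (0.319), and it reached 0.468. The place of a probe in the array's repeat of 480 spots took 36.7% of the variance of the probe means. Values with the mean of that place removed are given for the members whose call they change.

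Promoters from the RefSeq table on GRCm38.p6 were matched for 68 of the 85 members, 73 promoters in all, each running from 250 bases before the start to 50 after it. Each was searched on both strands for short core sequences of 4 factors known to act on genes of the respiratory chain: CATGCGC of NRF1, CCGGAAG of the ETS factor GABP, AAGGTCA of ESRRA and AAGATGG of YY1. None of the 4 contains another, though neighbouring matches can share end bases. One promoter per complex is shown, that of the member whose values over strains followed the other members most closely among those with a single promoter and a match before the start. Each is the stretch of 250 bases before the start, written 5′ to 3′ in the direction of the gene, and capitals mark the match. Ndufb4 (chr16:37654369-37654618, minus strand) holds the ESRRA core, Sdhb (chr4:140961021-140961270, plus strand) the NRF1 core, and Uqcr11 (chr10:80406822-80407071, minus strand) the ETS core. Cox5b (chr1:36691237-36691486, plus strand) holds the NRF1 core and Atp5h (chr11:115419920-115420169, minus strand) the ETS core, both on the opposite strand.
Ndufb4: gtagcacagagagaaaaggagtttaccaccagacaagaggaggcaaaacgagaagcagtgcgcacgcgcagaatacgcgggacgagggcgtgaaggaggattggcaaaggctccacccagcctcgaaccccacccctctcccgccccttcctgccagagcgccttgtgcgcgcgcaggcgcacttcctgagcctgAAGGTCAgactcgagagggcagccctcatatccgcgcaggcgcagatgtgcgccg
Sdhb: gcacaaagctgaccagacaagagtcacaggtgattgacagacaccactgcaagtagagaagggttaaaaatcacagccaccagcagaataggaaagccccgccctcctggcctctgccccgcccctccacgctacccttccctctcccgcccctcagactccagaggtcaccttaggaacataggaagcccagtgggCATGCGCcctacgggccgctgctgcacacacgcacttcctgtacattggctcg
Uqcr11: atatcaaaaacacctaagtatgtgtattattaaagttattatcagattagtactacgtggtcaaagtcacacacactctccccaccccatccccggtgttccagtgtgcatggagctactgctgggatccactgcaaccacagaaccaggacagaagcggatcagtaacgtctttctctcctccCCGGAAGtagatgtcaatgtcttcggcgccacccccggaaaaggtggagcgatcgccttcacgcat
Cox5b: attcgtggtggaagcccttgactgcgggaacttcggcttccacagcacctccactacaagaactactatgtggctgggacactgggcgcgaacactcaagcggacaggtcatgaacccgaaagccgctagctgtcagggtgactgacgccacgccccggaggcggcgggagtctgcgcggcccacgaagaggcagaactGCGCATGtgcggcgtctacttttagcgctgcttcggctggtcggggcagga
Atp5h: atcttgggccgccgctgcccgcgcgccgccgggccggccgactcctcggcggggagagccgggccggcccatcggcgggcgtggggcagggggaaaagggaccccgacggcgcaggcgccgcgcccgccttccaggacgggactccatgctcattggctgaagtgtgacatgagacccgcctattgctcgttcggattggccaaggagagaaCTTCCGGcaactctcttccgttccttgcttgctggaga

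Over the full windows, the NRF1 core stood in 12 of the members' 73 promoters (16.4%), against 3.91% of all 32851 promoters of the table and 5.51% of the 14461 promoters of genes on the array. The ETS core was in 17 (23.3%), against 8.86% and 13%, and the YY1 core in 12 (16.4%), against 6.34% and 6.73%. The ESRRA core was in 6 (8.22%), against 4.72% and 3.75%. At least 1 of the 4 cores was in 35 members' promoters (47.9%), against 21.6% of the table and 25.8% of the array's promoters. The median GC content was 58.7% for the members, 52.7% for the table and 58% for the array, so all promoters of the table differ from the members in base composition as well. A match is a stretch of letters and was not linked here to binding.

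The panel mean of each gene was tested against 0 with limma, with Benjamini-Hochberg adjustment over all 15096 genes at 0.05. P-values measure the spread between the arrays of the strains, each 1 pool. Of the 85 members, 54 were higher than the reference (63.5%), where 26.5% of all genes were called higher (55.8% in either direction). Lower values were called for 8 members (9.41%), where 29.3% of all genes were called lower, and 23 members did not pass. With the ratio turned, 54 members would be lower and 8 higher, against 26.5% and 29.3% of all genes. The median of the members' means was 0.37, against -0.01 over all genes. Members with a mean of at least 0.5 numbered 32, and 3.72% of all genes reached that mean. With the spot position removed, 56 members were called higher and 7 lower, where 29.6% and 25.1% of all genes were.

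**Figure D1:**
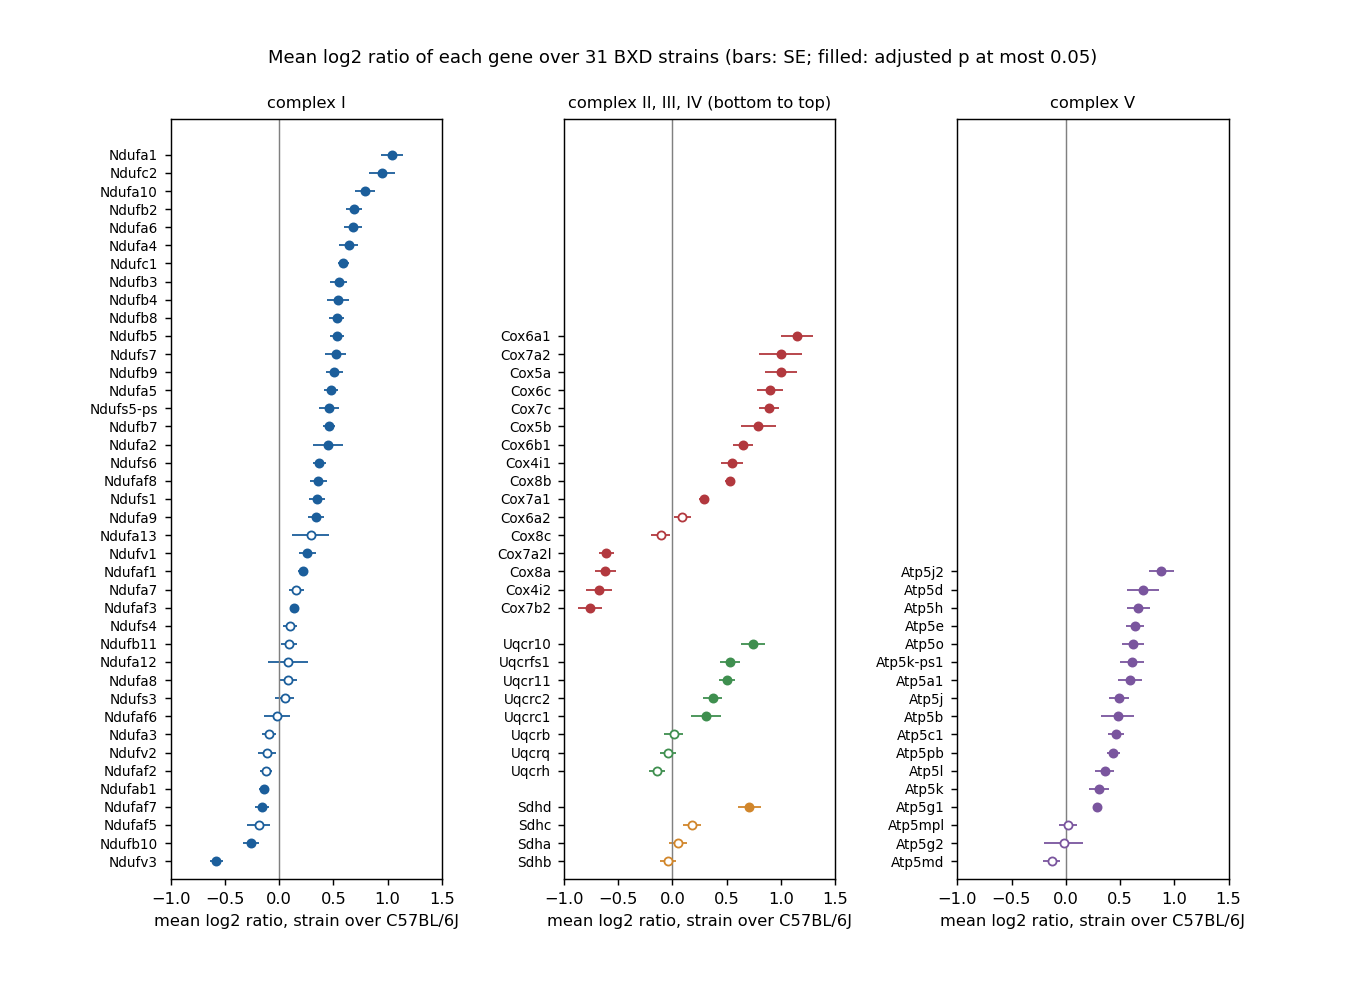
Mean log2 ratio of strain over C57BL/6J for each of the 85 members, grouped by complex, with the SE over 31 strains. The members of complex V called higher or lower all lie above 0, while complexes I and IV hold members on both sides, from Cox6a1 at 1.15 to Cox7b2 at -0.76.

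Complex I is the largest complex of the chain, with a matrix arm that takes electrons from NADH and a membrane arm that pumps protons. Of its 40 members 24 were higher, 4 lower and 12 did not pass, with a median of 0.35. In the membrane arm 11 of 16 subunits were higher and 1 lower, with a median of 0.53, and in the matrix arm 8 of 14 were higher and 1 lower, with a median of 0.30. Among the 7 assembly factors, which build the complex and do not stay in it, 3 were higher and 1 lower, with a median of -0.02. Their shares were 42.9% and 14.3%, where 26.5% and 29.3% of all genes were called higher and lower. The difference between these groups was not tested.

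Ndufa1, a small membrane subunit needed for assembly, ran from -0.14 in BXD15 over a median of 1.05 to 3.18 in BXD13. BXD13 stood well above the next strain at 1.79, and only BXD15 lay below the reference. Its mean of 1.04 ± 0.105 (SE, n = 31) was past the threshold in limma (adjusted p = 8.47e-10). Ndufc2, also of the membrane arm, ran from -0.19 in BXD15 over 0.86 to 2.91 in BXD20, with a mean of 0.95 ± 0.119 (adjusted p = 4.92e-08). Ndufa10, an accessory subunit, ran from -0.25 in BXD15 over 0.82 to 2.35 in BXD2, with a mean of 0.79 ± 0.0931 (adjusted p = 1.44e-08). In all 3 genes 30 of 31 strains were above 0, and the strain below was BXD15.

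Ndufb2 spanned -0.26 in BXD33 to 1.5 in BXD18 around a median of 0.73, with a mean of 0.69 ± 0.0707 (adjusted p = 1.16e-09). Ndufc1 spanned a narrower range, 0.02 in BXD9 to 1.14 in BXD2 around 0.59, and was the only member of complex I above 0 in every strain (mean 0.59 ± 0.0511, adjusted p = 3.96e-11). Ndufb4, whose promoter is shown above, ran from -0.55 in BXD9 over 0.56 to 2.11 in BXD2, with a mean of 0.54 ± 0.101 (adjusted p = 3.52e-05). The catalytic core of the matrix arm showed smaller means. Ndufs7, which carries the last iron-sulfur cluster before ubiquinone, had a mean of 0.52 ± 0.0948, Ndufs1 of 0.35 ± 0.0761 and Ndufv1, which binds NADH, of 0.26 ± 0.0791, each called higher. Ndufv2, the partner of Ndufv1, had a mean of -0.11 ± 0.0812 and Ndufs3 of 0.05 ± 0.0906, and neither passed.

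Ndufv3, a small subunit beside Ndufv1 and Ndufv2, was the lowest member of complex I. Its values ran from -1.64 in BXD34 over -0.56 to 0.13 in BXD15, and 30 of 31 strains were below 0. The mean was -0.58 ± 0.0607 (adjusted p = 1.6e-09). Ndufv1, Ndufv2 and Ndufv3 were thus called higher, not past and lower.

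Ndufb10, of the membrane arm, ran from -1.53 in BXD13 over -0.26 to 0.53 in BXD38, with a mean of -0.26 ± 0.0745 (adjusted p = 0.00334). That call rested on the spot position: with it removed the mean was -0.05 (adjusted p = 0.545). Ndufaf7, a methyltransferase that modifies a complex I subunit during assembly, ran from -1.17 in BXD6 over -0.17 to 0.39 in BXD21, with a mean of -0.16 ± 0.0629 (adjusted p = 0.0263). Without BXD15 and BXD38 its mean was -0.14 (adjusted p = 0.0536). The fourth lower member was Ndufab1, the mitochondrial acyl carrier protein, at -0.14 ± 0.0472 (adjusted p = 0.0133). Ndufaf5, an assembly factor at -0.19 ± 0.11, did not pass (adjusted p = 0.152).

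Other members of complex I also moved with the spot position. Ndufa2 had a mean of 0.45 (adjusted p = 0.00574), and the spots at its position had a mean of 0.52. With the position removed its mean was -0.07 (adjusted p = 0.672). Ndufa8 went the other way, from 0.08 (adjusted p = 0.43) to 0.43 (adjusted p = 8.2e-07), as did Ndufaf5, from -0.19 to 0.17 (adjusted p = 0.0465). Ndufa7 went from 0.16 (adjusted p = 0.057) to 0.24 (adjusted p = 0.00298) and Ndufa13 from 0.29 (adjusted p = 0.136) to 0.40 (adjusted p = 0.0356). The assembly factor Ndufaf3 went from 0.14 (adjusted p = 0.00352) to 0.08 (adjusted p = 0.0737). Ndufa12 was the most variable member of complex I, with an SD of 1.09, a range of -2.80 in BXD32 to 1.48 in BXD27 and a median of 0.37. Its mean of 0.08 ± 0.183 did not pass (adjusted p = 0.719).

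Ndufa4 is counted here by its name and is now placed in complex IV. It ran from -0.49 in BXD19 over 0.61 to 2.32 in BXD11, with a mean of 0.64 ± 0.091 (adjusted p = 4.99e-07). The pseudogene Ndufs5-ps was also called higher, at 0.46 ± 0.0909, and its probe may take up RNA of the parent gene, which was not tested.

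Complex II, succinate dehydrogenase, also works in the citrate cycle and pumps no protons. Of its 4 subunits only Sdhd passed, called higher (25%, where 26.5% of all genes were), and their median was 0.11. Sdhd, a membrane anchor, ran from -0.40 in BXD6 over 0.58 to 2.94 in BXD42, with a mean of 0.71 ± 0.104 (adjusted p = 7.62e-07). BXD42 stood far above the next strain at 1.82. The other anchor, Sdhc, ran from -0.74 in BXD6 over 0.22 to 0.95 in BXD20, and its mean of 0.18 ± 0.0814 did not pass (adjusted p = 0.0649). Without BXD15 it was 0.20 (adjusted p = 0.0274) and without BXD38 0.19 (adjusted p = 0.0484).

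Sdha, the flavoprotein that oxidises succinate, ran from -1.25 in BXD8 over 0.17 to 0.92 in BXD28, with a mean of 0.05 ± 0.081 (adjusted p = 0.639). Sdhb, the iron-sulfur subunit, ran from -1.53 in BXD16 over 0.09 to 0.52 in BXD2, with a mean of -0.04 ± 0.0761 (adjusted p = 0.677). Both catalytic subunits thus lay on either side of the reference among the strains.

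In complex III 5 of 8 members were higher, none lower, and the median was 0.34. Uqcrc1 and Uqcrc2 are the large core proteins. Uqcrc2 ran from -0.53 in BXD15 over 0.40 to 1.41 in BXD19, with a mean of 0.37 ± 0.0849 (adjusted p = 0.000412). Uqcrc1 ran from -2.49 in BXD32 over 0.30 to 2.66 in BXD11 and had the largest SD of the complex, 0.8. Its mean of 0.31 ± 0.135 passed narrowly (adjusted p = 0.0474) and no longer did with each array centred on its median (0.30, adjusted p = 0.0568). That centring took the same 0.0127 from the values of every array. In the strains BXD15 to BXD32 alone the mean of Uqcrc1 was -0.08.

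Uqcrfs1, the Rieske iron-sulfur protein that passes electrons on to cytochrome c1, ran from -0.73 in BXD38 over 0.54 to 1.55 in BXD20, with a mean of 0.53 ± 0.0901 (adjusted p = 7.49e-06). Among the 5 small subunits, Uqcr10 ran from -0.64 in BXD15 over 0.79 to 2.88 in BXD20, with a mean of 0.74 ± 0.11 (adjusted p = 9.86e-07). BXD20 stood apart there, since the next strain was at 1.67. Uqcr11, shown above, ran from -0.41 in BXD38 over 0.50 to 1.28 in BXD12, with a mean of 0.50 ± 0.0721 (adjusted p = 6.34e-07).

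The other three small subunits did not pass. Uqcrb, which lines the ubiquinone site, had a mean of 0.01 ± 0.085 and ran from -1.76 in BXD15 to 0.75 in BXD11. Uqcrq had a mean of -0.04 ± 0.0762, with a range of -1.26 in BXD33 to 0.56 in BXD39. Uqcrh, the hinge protein beside cytochrome c1, ran from -1.05 in BXD19 over -0.11 to 0.72 in BXD18, with a mean of -0.14 ± 0.0726 (adjusted p = 0.0936). Uqcrh was called lower without BXD15 (-0.17, adjusted p = 0.0408).

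Complex IV, cytochrome c oxidase, had the widest spread of means. Of its 16 members 10 were higher, 4 lower and 2 did not pass, with a median of 0.54. Several of its subunits exist as a widely expressed form and a form restricted to some tissues, such as muscle, lung or testis. Of the 9 widely expressed subunits 8 were higher and 1 was lower, with a median of 0.89. Of the 6 restricted isoforms 2 were higher, 2 lower and 2 did not pass, with a median of -0.01. Each share, 33.3%, lay near the 26.5% and 29.3% of all genes called higher and lower.

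Cox6a1, the widely expressed form of subunit VIa, had the highest mean of all members. It ran from -0.12 in BXD31 over 1.07 to 3.13 in BXD20, with a mean of 1.15 ± 0.149 (adjusted p = 8.5e-08). Cox5a, a matrix-side subunit, ran from -0.28 in BXD28 over 0.87 to 2.86 in BXD12, with a mean of 1.00 ± 0.146 (adjusted p = 6.52e-07). Cox7a2 ran from -2.41 in BXD9 over 0.77 to 2.69 in BXD1, with a mean of 1.00 ± 0.198 (adjusted p = 7.08e-05) and the largest SD of the complex, 1.18. The spots at the position of Cox7a2 had a mean of 0.51, and with the position removed its mean was 0.48 (adjusted p = 0.00233).

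Cox6c ran from -0.89 in BXD15 over 0.87 to 2.70 in BXD20, with a mean of 0.90 ± 0.12 (adjusted p = 1.42e-07). Cox5b, whose promoter is shown above, ran from -1.82 in BXD15 over 0.65 to 3.09 in BXD20, with a mean of 0.79 ± 0.161 (adjusted p = 9.5e-05). Cox4i1, a large subunit that binds ATP and ADP, ran from -0.90 in BXD15 over 0.57 to 1.47 in BXD27, with a mean of 0.55 ± 0.0999 (adjusted p = 1.94e-05). BXD15 was the lowest strain in all 3. Cox7c and Cox6b1 were also called higher, with means of 0.89 ± 0.0926 and 0.65 ± 0.0911.

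The 4 lower members were Cox7b2, Cox4i2, Cox8a and Cox7a2l. Cox7b2, a testis form of subunit VIIb, ran from -2.07 in BXD27 over -0.81 to 0.44 in BXD36, with a mean of -0.76 ± 0.11 (adjusted p = 5.47e-07). Cox4i2, the form of subunit IV known from lung and induced by low oxygen, ran from -2.49 in BXD20 over -0.53 to 0.50 in BXD33, with a mean of -0.68 ± 0.119 (adjusted p = 1.32e-05). BXD20, the lowest strain for Cox4i2, was the highest for Cox6a1, Cox6c and Cox5b.

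Cox8a, the widely expressed form of subunit VIII, ran from -2.29 in BXD11 over -0.59 to 0.41 in BXD23, with a mean of -0.62 ± 0.0973 (adjusted p = 2.22e-06). Cox7a2l joins complexes III and IV into supercomplexes, and C57BL/6J is known to carry a short form of it. It ran from -1.47 in BXD19 over -0.61 to 0.29 in BXD23, below 0 in 30 of 31 strains, with a mean of -0.61 ± 0.0678 (adjusted p = 5.74e-09). Strain values of Cox7a2l were not set against genotype here.

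Within a strain, each isoform pair was compared by the difference of its log2 ratios, which shows unequal change against the reference and not which isoform is more abundant. Cox4i1 was above Cox4i2 in 30 of 31 strains, by 1.23 ± 1.07 (SD), from 3.42 in BXD20 to the opposite order in BXD15, at -1.08. Cox6a1 was above Cox6a2 in 29 strains, by 1.06 ± 0.72 (SD). Cox6a2, the heart and muscle form, had a mean of 0.09 ± 0.0797 (SE) and a range of -1.0 in BXD8 to 0.94 in BXD6.

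For subunit VIII the order was turned. Cox8b, the heart and muscle form, ran from 0.04 in BXD14 over 0.53 to 0.92 in BXD29, above 0 in every strain, with a mean of 0.53 ± 0.0459 (SE, adjusted p = 4.91e-11). It lay above Cox8a in all 31 strains, and Cox8a minus Cox8b was -1.15 ± 0.629 (SD). Cox8c, a testis form, had a mean of -0.11 ± 0.0876 (SE), a range of -0.92 in BXD1 to 0.74 in BXD28, and did not pass (adjusted p = 0.297). So the widely expressed form was not the higher one in every pair.

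Cox7a1, the muscle form of subunit VIIa, ran from -0.37 in BXD23 over 0.29 to 0.94 in BXD18, with a mean of 0.29 ± 0.0481 (adjusted p = 4.31e-06). Cox7a2 was above it in 24 of 31 strains, and Cox7a1 minus Cox7a2 was -0.70 ± 1.18 (SD). With the spot position removed, an alternative added after the data were seen, that difference was -0.22 ± 0.792 (SD) and Cox7a2 was above in 22 strains. Before removal, the widest gap in the other direction was 2.96 in BXD9, the strain lowest for Cox7a2.

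**Figure D2:**
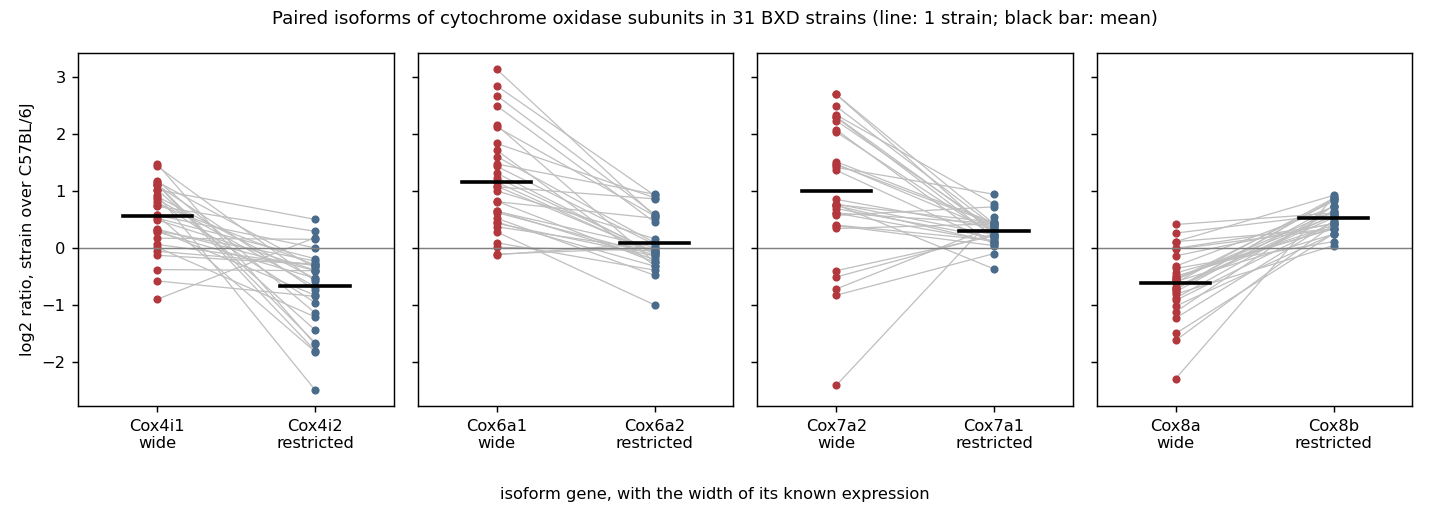
Log2 ratios of strain over C57BL/6J for isoform pairs of complex IV subunits, with the points of each strain joined by a line. The pairs are Cox4i1 and Cox4i2, Cox6a1 and Cox6a2, Cox7a2 and Cox7a1, and Cox8a and Cox8b. Cox8b lies above Cox8a in all 31 strains and Cox4i1 above Cox4i2 in 30.

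Complex V had 14 of 17 members higher, none lower, and a median of 0.48. The higher members include the pseudogene Atp5k-ps1, at 0.61 ± 0.108. Whether its probe takes up RNA of the parent gene was not tested. Over strains Atp5k-ps1 had r = 0.288 with Atp5k, whose mean was 0.31. It had r = 0.77 with Atp5e, on the adjacent probe, and 0.785 with Atp5l, at the same spot position (0.669 with the position removed). All 5 subunits of the F1 head and central stalk, the part that makes ATP, were higher, with a median of 0.59, as were all 4 of the peripheral stalk, which holds the head still, with a median of 0.56. The mean of the 4 stalk genes was at or above 0 in every strain, with the lowest, 0.00, in BXD9.

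Atp5d, the delta subunit of the central stalk, ran from -0.30 in BXD15 over 0.52 to 3.52 in BXD20, with a mean of 0.71 ± 0.15 (adjusted p = 0.000148). Atp5e, the epsilon subunit next to it, ran from -0.39 in BXD9 over 0.74 to 1.66 in BXD12, with a mean of 0.64 ± 0.0837 (adjusted p = 9.33e-08). The catalytic beta subunit Atp5b spread more widely, from -2.50 in BXD33 to 3.0 in BXD2, with a mean of 0.48 ± 0.152 (adjusted p = 0.00773), and the alpha subunit Atp5a1 had a mean of 0.59 ± 0.11. In the stalk, Atp5h, shown above, ran from -0.17 in BXD8 over 0.52 to 2.39 in BXD5, with a mean of 0.67 ± 0.103 (adjusted p = 1.7e-06). Atp5o, the subunit that ties the stalk to the head and confers oligomycin sensitivity, had a mean of 0.62 ± 0.0972.

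The membrane sector was mixed, with 4 of its 7 subunits called higher. Atp5j2, subunit f, ran from -0.30 in BXD9 over 0.81 to 2.11 in BXD27, with a mean of 0.88 ± 0.116 (adjusted p = 1.05e-07), the highest of the complex. The c ring, which turns as protons pass, is encoded by several genes for the same mature protein. Atp5g1 ran from -0.27 in BXD6 over 0.31 to 0.69 in BXD29, with a mean of 0.29 ± 0.0422 (adjusted p = 7.39e-07). Atp5g2 ran from -2.16 in BXD29 over 0.11 to 2.11 in BXD20, with an SD of 1.06 against 0.213 for Atp5g1, and its mean of -0.02 ± 0.178 did not pass (adjusted p = 0.925).

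Strains thus differed far more in Atp5g2 than in Atp5g1, and Atp5g1 was above Atp5g2 in 17 strains and below in 14. In the strains up to BXD14 alone Atp5g2 had a mean of 0.68 (adjusted p = 0.0046). Atp5mpl, a small proteolipid, had a mean of 0.02 ± 0.0828, with BXD24 at -1.97 and BXD15 at 1.47 far outside the next values of -0.43 and 0.39. Atp5md, which helps ATP synthase form dimers, was the only member with 2 probes. They had means of -0.23 and -0.02 and did not vary together over strains (r = -0.267, n = 31), and their average ran from -1.59 in BXD6 over 0.02 to 0.49 in BXD38, with a mean of -0.13 ± 0.0789 (adjusted p = 0.168).

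Averaged over its genes, each complex lay above the reference in most strains. The mean over strains was 0.29 ± 0.205 (SD) for complex I, 0.22 ± 0.275 for complex II, 0.29 ± 0.305 for complex III, 0.32 ± 0.283 for complex IV and 0.44 ± 0.264 for complex V. All 5 were above 0 in 21 strains and all below 0 in 2, BXD9 and BXD15. Complex V was the highest of the 5 in 16 strains and the lowest in none, and complex II was the lowest in 14. With the ratio turned, complex V would be the lowest in 16 and complex II the highest in 14. This order depends on which genes are pooled by name. Within complex IV the mean over strains was 0.70 for the 9 widely expressed subunits, above the 0.44 of complex V as a whole. It was -0.11 for the 6 restricted isoforms and -0.61 for Cox7a2l.

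**Figure D3:**
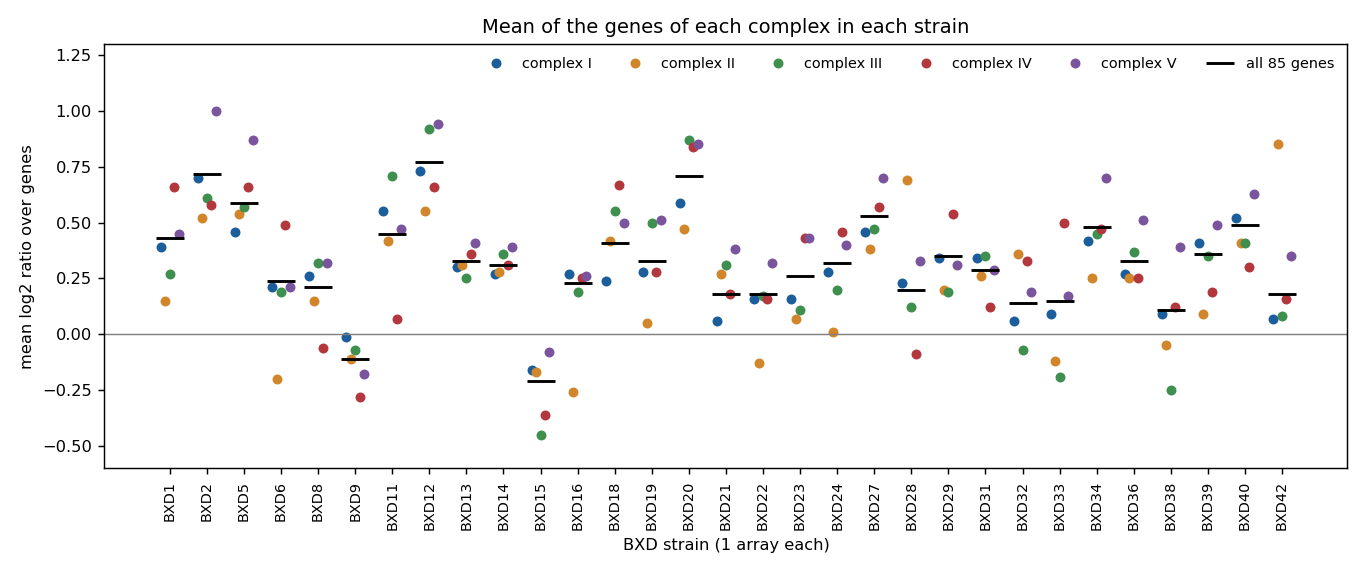
Mean log2 ratio over the members of each complex and over all 85 members in each of the 31 strains, with strains in order of their number. BXD15 and BXD9 have all 5 complexes below 0, and BXD12, BXD2 and BXD20 have the highest means of all members.

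Differences between complexes were taken within each strain. Complex V was above complex I in 26 of 31 strains, by a mean difference of complex I minus V of -0.15 ± 0.136 (SD). It was above complex II in 27 strains (-0.21 ± 0.247), above complex III in 25 (-0.15 ± 0.177) and above complex IV in 24 (-0.12 ± 0.214). These sizes depended on the setting. Complex I minus V was -0.09 without assembly and supercomplex factors. Complex II minus V was -0.31 with the spot position removed. Complex III minus V was -0.07 in the strains up to BXD14 and -0.29 in BXD33 to BXD42. Complex IV minus V was -0.04 by the median over genes and -0.18 with the spot position removed. Complexes I and III had no such order, with 16 strains one way and 15 the other and a difference of 0.01 ± 0.160. Complex I was above complex II in 23 strains, by 0.07 ± 0.254. The other differences among complexes I to IV were between -0.09 and -0.03, each smaller than its SD over strains.

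The mean of all 85 members was 0.32 ± 0.216 (SD), with BXD15 lowest at -0.21 and BXD12 highest at 0.77. BXD2 at 0.72 and BXD20 at 0.71 followed at the top, and BXD9 at -0.11 was next to the lowest. Single members did not all share these extremes. The highest strain was BXD20 for 12 members, BXD11 or BXD12 for 7 each and BXD2 for 6. The lowest was BXD15 for 20 members and BXD9 for 12. BXD15 and BXD9 are also among the 3 arrays least like the rest over all genes, and whether that bears on their low members was not tested.

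Members varied between strains more than most genes. The median SD over strains was 0.487 for the members and 0.358 for all genes, and 71 members (83.5%) were above the latter. Complexes I and III followed each other most closely across strains, with r = 0.874 (rho = 0.845, and r = 0.814 without the 2 strains farthest out). Complexes I and V had r = 0.860 and III and V had r = 0.815. Complex IV followed less closely, with r of 0.696 with V, 0.604 with I and 0.572 with III, and complex II with IV had r = 0.272. These correlations are over 31 strains whose means share an array, its reference and its spot positions, and are given as a description.

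Between single members the mean pairwise correlation was 0.135 over 3570 pairs, against 0.00272 over all gene pairs. It was 0.213 within complex III, 0.146 within complex I, 0.129 within V, 0.104 within IV and 0.07 within II, and 0.201 between complexes I and III. Members called higher had a mean of 0.293 among themselves and of -0.117 with those called lower. Members called lower had a mean of 0.0123 among themselves, so they did not vary together as a group. Other genes called higher were not compared. With the spot position removed the value within complex IV was 0.0242. Cox6a1, Cox6a2, Cox4i1 and Cox7a2l lie at the same spot position, and Cox6a1 with Cox6a2 went from r = 0.585 to 0.16 when it was removed.

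**Figure D4:**
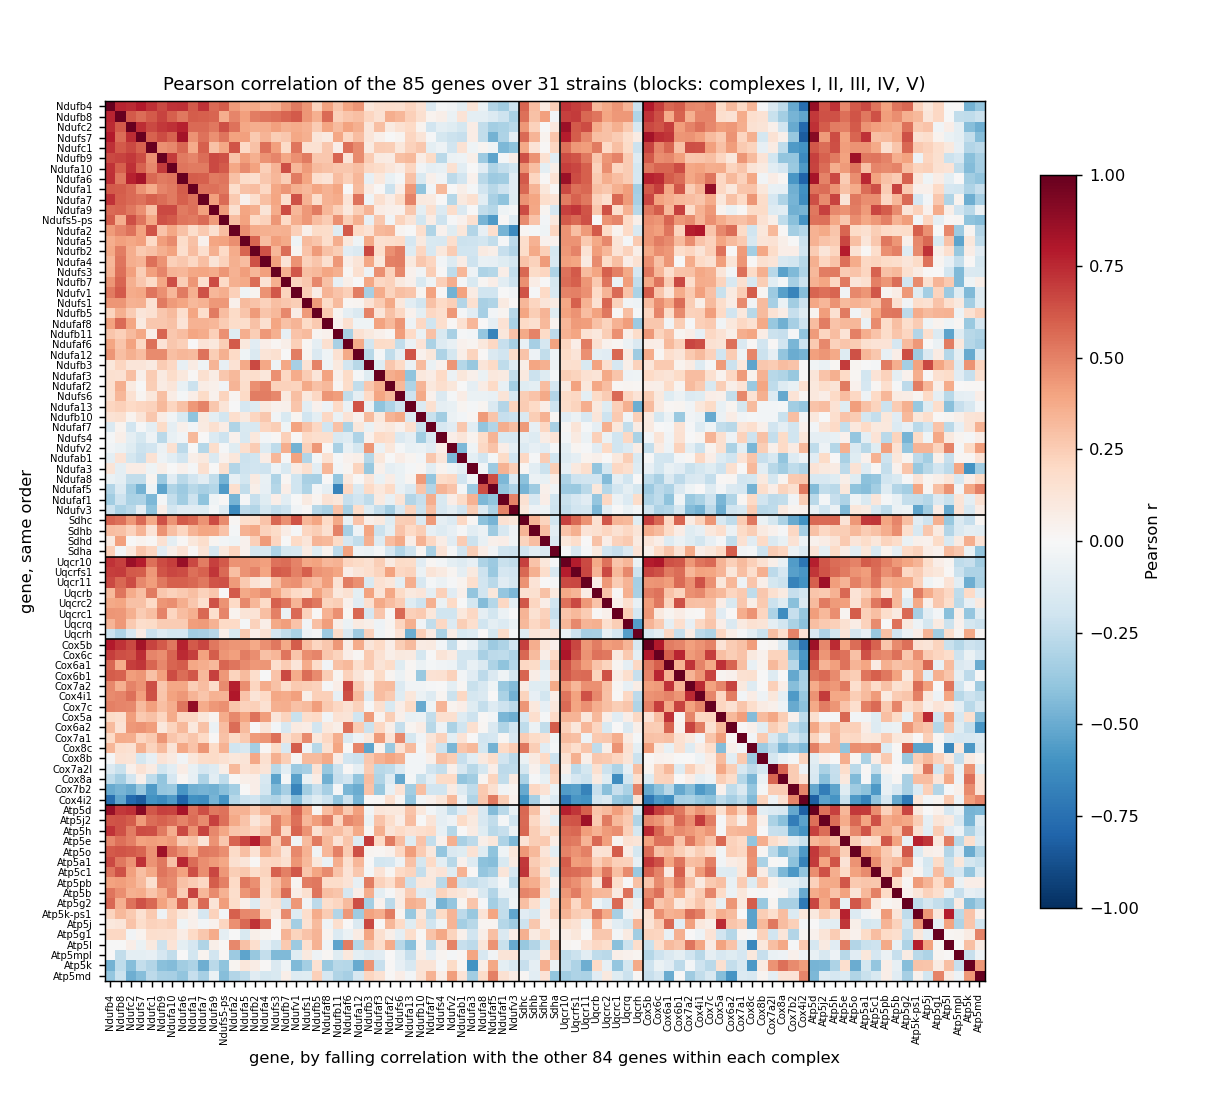
Pairwise Pearson correlation of the 85 members over 31 strains, ordered by complex. Within each complex, members stand by falling correlation with the other members. Blocks of positive values at the head of complexes I, III and V follow in part from that order. Rows of negative values, placed last by it, belong to Cox4i2, Cox7b2 and a few others.

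Ndufb4 followed the mean of the other members most closely, with r = 0.864, then Uqcr10 (0.845), Ndufb8 (0.83) and Cox5b (0.818). In complex V it was Atp5d (0.782) and in complex II Sdhc (0.587). In all, 41 members (48.2%) had an r over 0.5, against 6.03% of the 15011 other genes. Cox4i2 ran opposite to the rest, with r = -0.726, as did Cox7b2 (-0.583). Weaker negative values were those of Ndufv3 (-0.356), Ndufaf1 (-0.354) and Atp5md (-0.321). Atp5md is the average of 2 probes that did not vary together (r = -0.267). The highest pair was Atp5d with Ndufs7 (r = 0.908), and the lowest was Cox4i2 with Ndufs7 (r = -0.835). By rank these pairs were less close, with rho = 0.678 and rho = -0.638.

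Other members also share a spot position. Ndufa2 and Cox7a2 share a position of 48 spots and had r = 0.776, or 0.503 with it removed. Ndufaf5 and Ndufa8 share another, whose mean was -0.35, and went from r = 0.647 to 0.178. Atp5d and Ndufa6, which also share one, were at 0.822 before and 0.829 after.

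**Figure D5:**
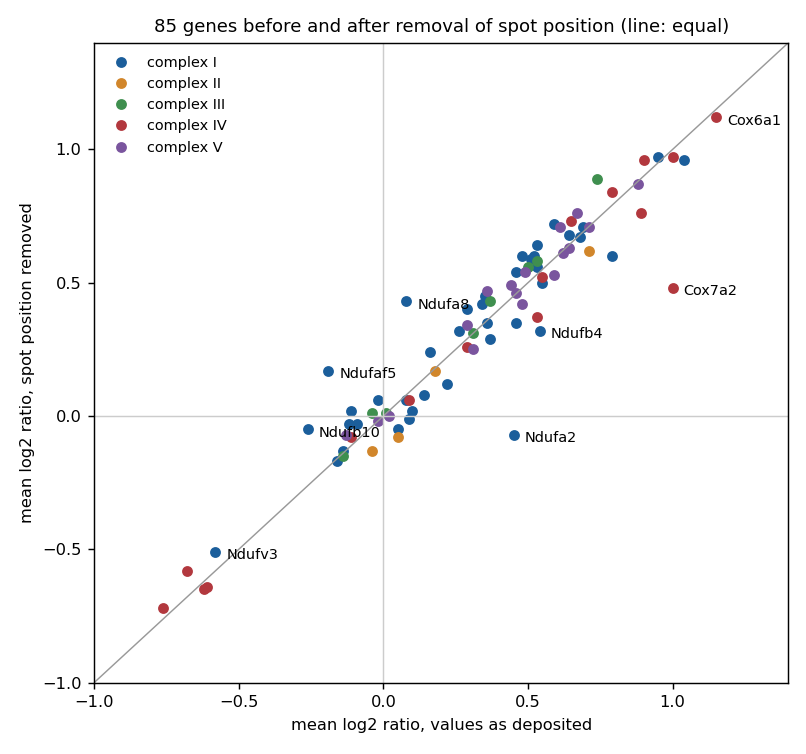
Mean log2 ratio of each member over 31 strains, as deposited (horizontal) and with the spot position removed (vertical). The line marks equal values. Ndufa2, at 0.45 and -0.07, and Cox7a2, at 1.00 and 0.48, lie below the line. Ndufa8, at 0.08 and 0.43, and Ndufaf5, at -0.19 and 0.17, lie above it.

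Genes known to serve or belong to the chain but outside the rule were taken from fixed lists. Assembly factors had 14 of 34 higher (41.2%) and 5 lower (14.7%), where 26.5% and 29.3% of all genes were. Their median was 0.07 and, as a mean over strains, they had r = 0.739 with the members. They ranged from Coa6 (0.51), Coa4 (0.47) and Cox16 (0.45), all factors of complex IV, to Sdhaf2 (-0.53), which adds FAD to Sdha, Timmdc1 (-0.45), a complex I factor, and Tmem70 (-0.44), a complex V factor. Mobile carriers and other electron donors, a list that also holds ubiquinone synthesis genes, had 12 of 22 higher (54.5%) and 5 lower (22.7%). Their median was 0.23, with r = 0.837. Among them, Cyc1 (0.50, adjusted p = 3.8e-06) encodes cytochrome c1, a subunit of complex III that the name rule leaves out. Etfb (0.91), which feeds electrons from fatty acid oxidation, was highest, with the ADP/ATP carrier Slc25a4 (0.72), and Gpd2 (-0.67), the glycerol phosphate dehydrogenase, was lowest.

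Of the citrate cycle and pyruvate dehydrogenase, 8 of 17 genes were higher (47.1%) and 2 lower (11.8%), where 26.5% and 29.3% of all genes were. The median was 0.12, with r = 0.735. Suclg2 (0.53), Fh1 (0.50) and Idh3b (0.41) were highest, and Dlst (-0.33), Idh3a (-0.28) and Suclg1 (-0.05) lowest. With the spot position removed, Dlst was at -0.20 (adjusted p = 0.0932), Idh3a at 0.07 (adjusted p = 0.413), Idh3b at 0.19 and Suclg1 at -0.20 (adjusted p = 0.0292). Of the regulators of mitochondrial genes 6 of 16 were higher (37.5%) and 7 lower (43.8%), with a median of -0.04 and r = 0.256. Nrf1 had a mean of 0.83, or 0.31 with the spot position removed, and Esrra, an orphan receptor that drives genes of the chain, was at -0.90. Esrrg and Ppara were called higher, at 0.49 and 0.44, and Esrrb and Gabpa lower, at -0.31 and -0.29.

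The 10 other genes most like the members' mean over 31 strains were Psmb7 (r = 0.883), Srsf2, Vcp, Rps21, Nfs1, Prdx2, Sat1, Rpl15, Rpl30 and Hars (0.809). Those most unlike it were Tmem150cos (r = -0.761), Mmrn1, G6pc2, Ctag2, 4930554G24Rik, Atoh1, Pygo1, Fxyd3, 5430425E15Rik and Cdhr3 (-0.730). The first principal component, the main axis of variation over all genes, took 21.9% of the variance. The members' mean had r = -0.532 (rho = -0.617) with this axis, whose sign is arbitrary. With Gapdh the members' mean had r = 0.512, or 0.216 without BXD2 and BXD15.

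Marker lists of cell types moved with the members to different degrees. Beside their counts, 26.5% of all genes were called higher and 29.3% lower. In bulk RNA, fewer cells of a type and less RNA per cell cannot be told apart. Proximal tubule markers had r = 0.725 (rho = 0.622, and r = 0.699 without the 2 strains farthest out) with the members' mean, with 6 of 13 higher and 1 lower and a list mean from -0.81 in BXD38 to 1.27 in BXD2. Markers of the thick ascending limb and distal tubule had r = 0.611 (rho = 0.376), which fell to 0.341 without BXD9 and BXD15, and ran from -0.94 in BXD15 to 0.61 in BXD20. Of these 6 genes 1 was higher and 2 were lower. Adipocyte markers had r = 0.595 (0.494 without BXD22 and BXD12), with 5 of 6 higher, and ran from -0.25 to 1.57 in BXD12. The remaining gene, Adipoq, had a mean of 0.12 and did not pass (adjusted p = 0.644). With the spot position removed Adipoq was called lower, at -0.40 (adjusted p = 0.00222). Muscle markers had r = -0.517 (-0.492 without BXD34 and BXD32), with 4 of 9 lower and none higher, and ran from -0.59 in BXD34 to 0.24 in BXD32. With the spot position removed, 5 muscle markers were lower and 2 higher. Neuron markers had r = -0.0602, with 4 of 8 higher and 2 lower, and stayed between -0.11 and 0.31. Glia had r = -0.343 and podocytes 0.226, or -0.446 and 0.282 without the 2 strains farthest out. Collecting duct markers had r = 0.212, which was 0.00823 without BXD15 and BXD33. The part of cell makeup in the members' values was not tested.

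Counts of members called were also taken within strains by number. Up to BXD14, 50 members were higher, where 21.6% of all genes were, and in BXD15 to BXD32 46 were, where 19.6% were. In BXD33 to BXD42, 32 were higher, where 6.21% were. Lower members numbered 9, 7 and 3 in these sets, where 20.1%, 19.9% and 5.2% of all genes were lower. Fewer strains enter each of these fits. Without BXD15, without BXD38 and without both, 56 members were higher each time and 9, 8 and 8 lower, where 56.9%, 56.5% and 57.8% of all genes were called in either direction. With each array centred, 53 were higher and 8 lower, where 56.1% were called. All arrays have the same median, so centring took 0.0127 from every value and could change little. Requiring a log2 change beyond 0.2 (limma's treat) left 40 higher and 5 lower, where 8% and 9.2% of all genes were.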

How the data were processed

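RNA of 31 BXD strains was compared with C57BL/6J on 2-colour spotted arrays, 1 array per strain. The deposited values are log2 ratios, the likely reading of a table whose base and direction are not given in the sources used here. The authors used R 2.0.0 and limma, per the submitters' processing notes, and the identical sorted values of all arrays show that they were made alike. Without intensities, no signal over background can be given, and precision is limited by how many arrays there are.

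Probes with a single name in the platform table were averaged per gene (16874 probes, 15096 genes). Symbols matched the RefSeq gene table for 84 of the 85 members. Each gene's mean over strains was tested against 0, 2-sided, in R 4.3.3 by the lmFit and eBayes functions of limma 3.58.1, with Benjamini-Hochberg adjustment over all genes at 0.05. On simulated data with 200 changed genes, 55% of changes of 0.25 and 96% of changes of 0.5 were recovered, and 5.03% of calls were false. In the simulation genes varied independently and all other genes had a true mean of 0. Effects of spot position, reference and dye were not simulated, so 5.03% is not the share of false calls in the real data. Spot position was removed by subtracting, in each array, the mean of its spots at the same place in the repeat of 480.

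Members, lists and tests were chosen with earlier results of these data known, and the groups of subunits by role with the members' values known. Named with values were, in each complex, the 4 highest and 4 lowest members, the most variable one, those most and least like the other members, all of complex II, the isoform sets and the gene with 2 probes. From each list the 3 highest and 3 lowest could be named, and the 10 genes most and least like the members' mean. Other named genes were chosen after their values were seen. Alternatives were centring, spot position, leaving out probes of least spread, array weights, a treat threshold, arrays left out and strains by number.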

Additional observations from a re-analysis of the deposited data

How the results depend on the processing

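The counts of 54 higher and 8 lower members moved by more than 1.5 times in few settings: with BXD33 to BXD42 alone there were 32 higher and 3 lower, and with treat at a log2 change of 0.2 there were 5 lower. With the spot position removed, 8 members' means changed sign. Among means called in all strains or in the setting, the sign changed for Ndufa2 (-0.07) and Ndufaf5 (0.17) with the spot position removed, for Atp5g2 (0.68), Atp5k (-0.05) and Atp5l (-0.04) in strains up to BXD14, for Uqcrc1 (-0.08) in BXD15 to BXD32, and for Ndufaf5 (0.57) and Ndufb10 (0.04) in BXD33 to BXD42. The mean pairwise correlation of all members was 0.178 up to BXD14. That of complex I was 0.19 up to BXD14, 0.0937 in BXD15 to BXD32, 0.197 in BXD33 to BXD42 and 0.193 without assembly factors. That of complex II was 0.194 with the position removed, 0.224 in BXD15 to BXD32, -0.118 in BXD33 to BXD42 and 0.139 by Spearman. Complex III reached 0.278 in BXD33 to BXD42. Complex IV was at 0.0242 with the position removed, 0.0483 up to BXD14, 0.167 in BXD15 to BXD32 and 0.0384 in BXD33 to BXD42. Complex V was at 0.32 up to BXD14 and 0.0806 in BXD15 to BXD32. The subsets by number hold fewer strains, and otherwise the cause was not tested. Of the differences between complexes, those with complex V kept their sign, though not their size, in the 13 settings run, and complex I minus III took the opposite sign in 6 of 13. No setting left out the restricted isoforms of complex IV as a group. No paired analysis was possible because all strains form a single group and replicate numbers follow accession order.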
